A study of Mus musculus with 21 samples.

Results

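Kcnb2, Kcnc1, Kcnc2 and Kcnc4 encode pore-forming subunits of voltage-gated potassium channels, the first of the Kv2 family and the other three of the Kv3 family. They were chosen by name as 4 of the 52550 genes in the deposited table, and the rule uses no measured value, although earlier results of these data were known when it was set. Kcnb2 lies on chromosome 1 (15287254 to 15723750, plus strand), Kcnc1 on chromosome 7 (46396497 to 46438704, plus strand), Kcnc2 on chromosome 10 (112271121 to 112467024, plus strand) and Kcnc4 on chromosome 3 (107438303 to 107459552, minus strand) of GRCm38, which is mm10. All 4 passed the filters on low counts in both fits described here.

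The levels come from bulk RNA-Seq of 7 groups of C57BL/6 mouse cells with 3 libraries each. Every mouse carried the Cre-dependent reporter Rosa26-CAG-loxp-stop-loxp-tdTomato/+, and the driver set which cells became red. Spiral ganglion neurons (SGNs), the neurons that carry sound signals from the cochlea to the brain, were labeled with ShhCre/+ and taken at 5 ages, namely embryonic day E15.5 and postnatal days P1, P8, P14 and P30. Hair cells (HCs) at P12 were labeled with Atoh1-CreER+ after tamoxifen at P0 and P1, and pooled cochlear with vestibular cells. Glial cells at P8 were labeled with vGlut3-iCreER/+ after tamoxifen at P2 and P3, a driver that also labels inner HCs, and came from tissue of the SGN area. An SGN library held 69 to 195 cells by the labels, a glial library 86 to 125 and an HC library about 1200. SGNs and glial cells were picked by hand. The labels say the same of HCs, whereas the methods describe fluorescence-activated sorting. Nothing in the labels says that the 3 libraries of a group came from separate animals, so the p-values measure the spread between libraries.

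Kv3 channels open only at strongly depolarized voltages and close fast, and are known for letting auditory neurons fire at high rates. Kv2 channels are slower delayed rectifiers that also form clusters on the cell body, where the membrane touches the endoplasmic reticulum. Subunits of a family assemble as tetramers, and Kv2 subunits also assemble with silent subunits that form no channel alone. P14 lies at about the age at which mice begin to hear, so the SGN series runs from before to after the onset of hearing.

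Reads of related genes can be confused where their transcripts are identical. Over the annotated protein-coding transcripts of GENCODE M21 on GRCm38, the longest identical run between any pair of the 4 genes was 29 bases, found for Kcnc1 with Kcnc2 and for Kcnc1 with Kcnc4. A read that matches one of these transcripts over more than 29 bases therefore has no exact match in the transcripts of the other three. No other annotated gene overlapped Kcnc1, Kcnc2 or Kcnc4. Kcnb2 overlapped Gm38116 and Gm37138 on its own strand, which held at most 240 and 36 counts in any library, and Gm25227, which held 0.

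The check of the cell types used marker genes named in the study or known from textbooks. The summed TPM (a level per transcript length, with one common sum for all libraries) of 7 SGN markers lay between 781 and 4929 in the 15 SGN libraries, between 164 and 188 in HCs and between 24.0 and 213 in glial cells. The sum of 7 HC markers was 5015 to 6180 in HCs and at most 746 in SGNs, and the sum of 7 glial markers was 7353 to 9965 in glial cells. Glial markers in SGNs were highest at P8 (791 to 1431) and in P14 replicate 1 (933), and lay between 7.34 and 243 in the other SGN libraries. Glial replicate 1 held more of the SGN markers (213, against 36.5 and 24.0 in replicates 2 and 3) and of the HC markers (371, against 71.5 and 72.4). The sum of 3 blood markers was 176 in E15.5 replicate 1 and at most 32.3 in any other library. The sum of 4 mesenchyme markers was 244 to 376 in glial cells and 80.4 to 87.6 in HCs. In SGNs it was 2.23 to 105, highest in P1 replicate 1. Because 3 of these markers were used in the study to accept samples by quantitative PCR, the sums are not an independent check of purity. Libraries held between 10368240 and 37287489 counts on genes, so that 3 counts, the limit a count of 0 allows, equal 0.0805 to 0.289 CPM (counts scaled by the library's total). These limits cover counting error only, and are too low where a read pair was counted as 2. The share of counts on mitochondrial genes was 9.57% to 13.5% at E15.5 and 16.4% to 24.2% in SGNs from P1 on, against 9.54% to 13.5% in HCs and glial cells. It thus moved with the comparisons of E15.5 with later ages and of SGNs with other cells, and its part in them was not tested. In bulk libraries, fewer cells of a type and less RNA per cell cannot be told apart.

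Levels within a gene are given as CPM, the share of a library's counts. TPM was kept for comparing genes, but between libraries it moved with 1 short gene. Gm23935, annotated as a miRNA gene of 57 bases on chromosome 16, took between 8.17% and 68.1% of the summed TPM of a library, which scales the TPM of all other genes in that library.

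Kcnc1 was higher at each age of the SGNs than at the one before. Its 3 libraries held 83.1, 73.2 and 132 CPM at E15.5, then 153, 194 and 155 at P1 and 323, 354 and 323 at P8. They held 543, 482 and 604 CPM at P14 and 660, 783 and 675 at P30. No library of an age overlapped with any library of the next age. From E15.5 to P30 the log2 fold change was 3.37 ± 0.18 (SE, n = 3 and 3), a 10.4-fold rise (limma adjusted p = 2.76e-09). With libraries scaled by their totals alone, as CPM is, the log2 fold change was smaller, at 2.90. Between neighboring ages the rise passed both thresholds, an adjusted p under 0.05 and a change over 2-fold, from P1 to P8 (log2 fold change 1.22 ± 0.16, limma adjusted p = 0.000135). The steps from E15.5 to P1 (0.96 ± 0.20, limma adjusted p = 0.00687) and from P8 to P14 (0.80 ± 0.14, limma adjusted p = 0.0154) passed the p threshold but stayed under 2-fold. The step from P14 to P30 was 0.39 ± 0.14 on the log2 scale and did not pass (limma adjusted p = 0.51), although all 3 P30 libraries lay above all 3 P14 libraries.

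**Figure D1:**
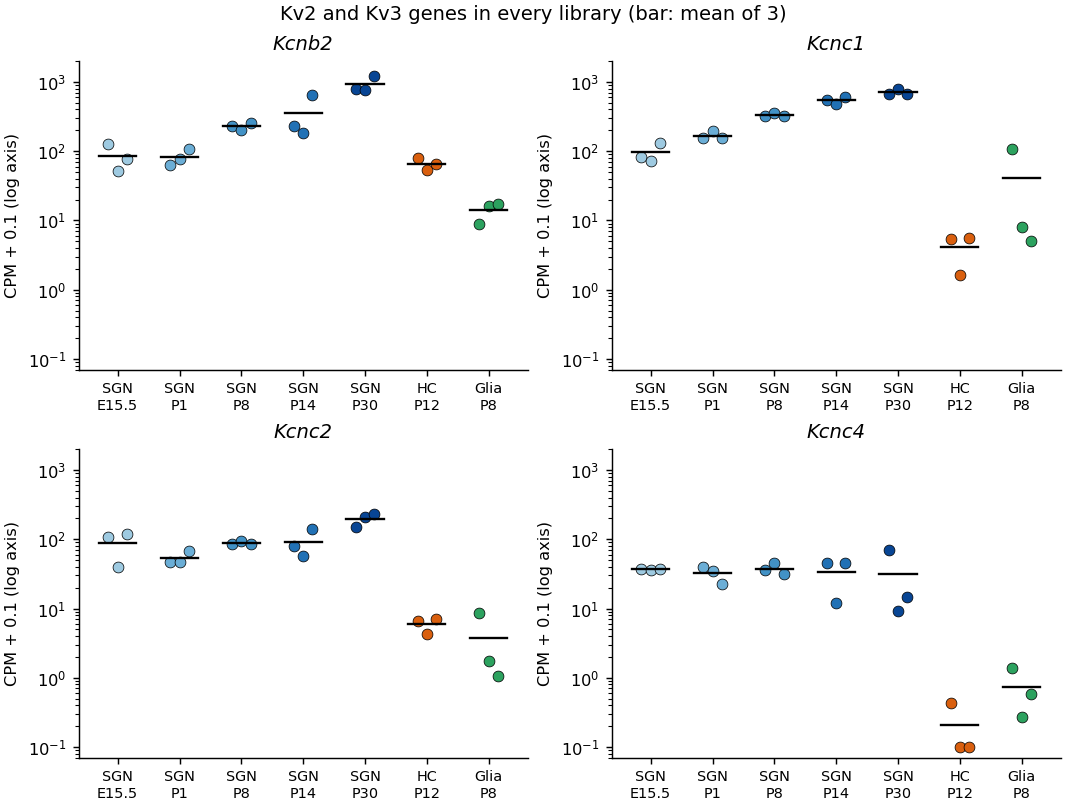
CPM plus 0.1 on a log axis for Kcnb2, Kcnc1, Kcnc2 and Kcnc4 in the 21 libraries, by group (each point 1 library, each bar the mean of 3). Kcnc1 climbs from 73.2 to 132 CPM at E15.5 to 660 to 783 at P30, Kcnc4 lies between 9.03 and 69.7 in all SGN libraries, and glial replicate 1 stands above the other glial libraries for Kcnc1.

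Kcnb2, the Kv2 member, had the largest fitted change of the 4 over the whole period. Its libraries held 128, 51.8 and 76.5 CPM at E15.5 and 63.4, 76.9 and 106 at P1, so these ages overlapped. They held 232, 200 and 252 CPM at P8, 233, 185 and 641 at P14, and 795, 760 and 1238 at P30. P14 replicate 3 stood apart from its group, and without it the P14 libraries lay within or just below the range of P8. From E15.5 to P30 the log2 fold change was 4.01 ± 0.43 (SE, n = 3 and 3), a 16.1-fold rise (limma adjusted p = 2.23e-06). Scaling by library totals alone gave a smaller log2 fold change of 3.54. The rise from P1 to P8 passed both thresholds (1.74 ± 0.42, limma adjusted p = 0.0126), but not without P1 replicate 1 (1.53, adjusted p = 0.0779) or without P8 replicate 3 (1.63, adjusted p = 0.05). From P14 to P30 the log2 fold change was 1.62 ± 0.33 with an adjusted p of 0.107 by limma, and every P30 library lay above every P14 library. That step passed without P14 replicate 3 (2.15, adjusted p = 0.00779). From P8 to P14 the value was 0.49 ± 0.36 (limma adjusted p = 0.679), and -0.01 without P14 replicate 3.

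Kcnc2 reached its highest level at P30. It held 108, 40.0 and 120 CPM at E15.5, 46.8, 47.0 and 66.9 at P1 and 85.4, 93.7 and 86.7 at P8. At P14 its libraries held 78.7, 56.9 and 139 CPM, and at P30 150, 213 and 233. The ranges at E15.5, P8 and P14 overlapped, whereas the 3 P30 libraries lay above all 12 libraries of the younger ages. The log2 fold change from E15.5 to P30 was 1.75 ± 0.33 (SE, n = 3 and 3), a 3.37-fold rise (limma adjusted p = 0.000577). Scaling by library totals alone gave a smaller log2 fold change of 1.28. No step between neighboring ages passed the thresholds. The largest were from P14 to P30 (1.20 ± 0.31, limma adjusted p = 0.227) and from P1 to P8 (0.98 ± 0.34, limma adjusted p = 0.081).

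Kcnc4 did not pass any test of its level across age. It held 37.5, 36.5 and 36.7 CPM at E15.5, 39.1, 35.2 and 22.8 at P1 and 36.0, 44.7 and 31.1 at P8. At P14 it held 45.2, 11.8 and 45.3 CPM and at P30 69.7, 9.03 and 14.5, so the libraries of the older ages spread widely and replicates of one age fell on both sides of the younger ages. From E15.5 to P30 the log2 fold change was -0.12 ± 0.61 (SE, n = 3 and 3; limma adjusted p = 0.89). Without P30 replicate 1 it was -1.21, and without P30 replicate 2 it was 0.49, neither of which passed. P30 replicate 1, the high library, also held more HC markers (359 summed TPM, against 107 and 75.8) and glial markers (224, against 64.4 and 7.34) than the other P30 libraries, and the part of these in the Kcnc4 level was not tested.

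**Figure D2:**
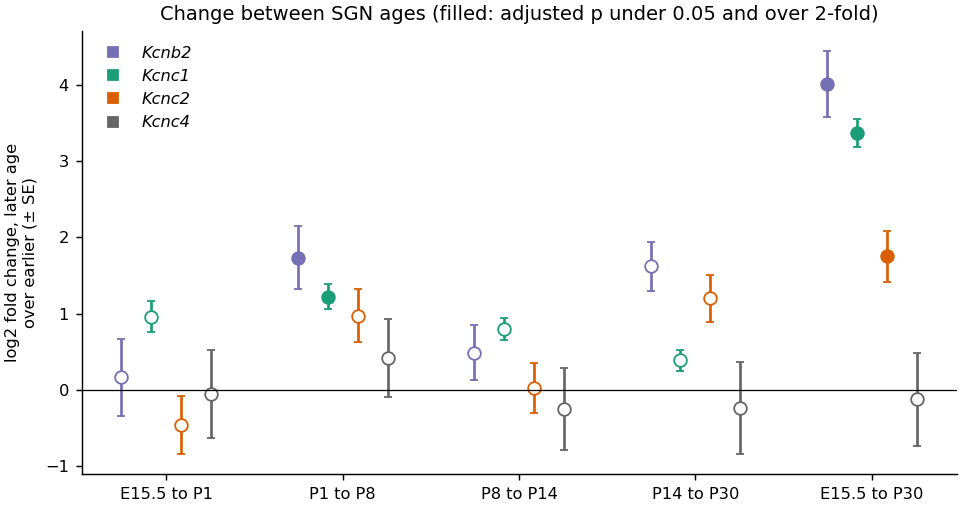
Fitted log2 fold changes between SGN ages (later over earlier, ± SE, 3 libraries per age) for the 4 genes, with filled points where the adjusted p was under 0.05 and the change over 2-fold. Filled points stand for Kcnb2 and Kcnc1 from P1 to P8 and for Kcnb2, Kcnc1 and Kcnc2 from E15.5 to P30, while Kcnc4 stays within 1 log2 unit of 0.

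Counted over the fit, 3 of the 4 genes were called from E15.5 to P30, each upward, where 34.6% of the 15113 tested genes were called in either direction (2778 rose and 2446 fell). From P1 to P8, 2 of the 4 were called against 7.44% of all genes. None of the 4 was called from E15.5 to P1 (8.26% of all genes), from P8 to P14 (0.536%) or from P14 to P30 (0.0596%). In the test of any difference among the 5 ages, with an adjusted p under 0.05, 37.8% of genes were called, and so were Kcnb2 (limma adjusted p = 7.37e-06), Kcnc1 (5.08e-09) and Kcnc2 (0.000808) but not Kcnc4 (0.937). The median log2 fold change of all tested genes from E15.5 to P30 was -0.01.

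Per transcript length, Kcnc1 came to make up most of the summed level of these 3 Kv3 genes. At E15.5 the shares of Kcnc1, Kcnc2 and Kcnc4 in their summed TPM were close, at 31.1 ± 4.61%, 36.5 ± 10.9% and 32.4 ± 9.33% (SD, n = 3). The Kcnc1 share was 51.8 ± 3.82% at P1 and 61.0 ± 1.36% at P8, and then 73.3 ± 7.86% at P14 and 67.2 ± 4.31% at P30. The Kcnc4 share was 25.9 ± 6.28% at P1 and 17.5 ± 1.99% at P8, followed by 11.1 ± 5.27% at P14 and 7.70 ± 8.35% at P30. That of Kcnc2 was 22.3 ± 6.17%, 21.5 ± 0.633%, 15.6 ± 4.15% and 25.1 ± 5.56% over the same 4 ages. A share within a library does not depend on the TPM scale of that library.

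Each share was compared between the 9 libraries before hearing onset (E15.5, P1 and P8) and the 6 after it (P14 and P30) by a two-sided exact permutation test over libraries. The 4 values tested were the 3 shares and the log2 of the summed TPM, adjusted together. The test treats all libraries as exchangeable, although libraries of the same age are not independent with respect to hearing onset. Its p-values therefore take the library, and not the age, as the unit. Kcnc1 rose from 48.0 ± 13.6% to 70.2 ± 6.57%, a difference of 22.3 percentage points (exact permutation adjusted p = 0.0016), with 25.8% to 62.4% before and 63.5% to 82.0% after, so the groups did not overlap. The Kcnc4 share fell from 25.3 ± 8.62% to 9.41 ± 6.52% (exact permutation adjusted p = 0.0016). The difference was -15.8 percentage points in TPM and -8.73 when shares were taken of CPM, not divided by length. The 3 shares are parts of the same sum, so a rise of Kcnc1 lowers the others, and their tests are not independent. The level of Kcnc4 itself did not pass the test of any difference among the ages (limma adjusted p = 0.937). Its lower share therefore does not show a lower level. The Kcnc4 share was highest after onset in P30 replicate 1 (17.3%), which lay above the lowest earlier library, P8 replicate 3, and next highest in P14 replicate 1 (15.3%), which lay below it. Kcnc2 was at 26.8 ± 9.63% before and 20.4 ± 6.79% after, a difference that did not pass (exact permutation adjusted p = 0.186). The log2 of the summed TPM was higher after than before by 1.35 (exact permutation adjusted p = 0.00746). Unlike a share, this sum depends on the TPM scale of each library. The 2 alternatives, CPM and leaving out the P8 libraries, gave differences of 1.43 to 1.65. The shares had moved before hearing onset as well. All 3 P1 libraries lay above all 3 E15.5 libraries in the Kcnc1 share, and all 3 P8 libraries above all 3 P1 libraries. A share that moved steadily with age would also differ between the groups before and after onset. An effect of hearing onset apart from age was therefore not tested.

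**Figure D3:**
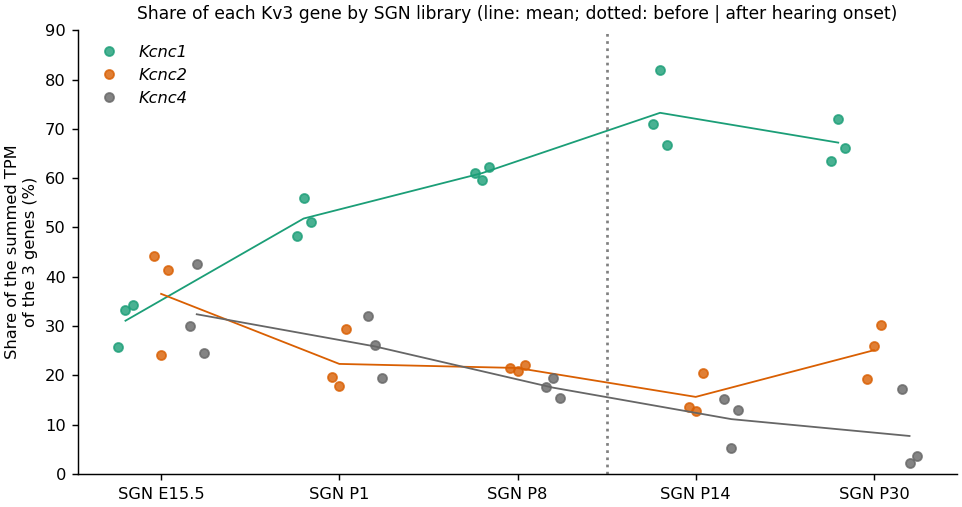
Share of Kcnc1, Kcnc2 and Kcnc4 in their summed TPM (%) in each of the 15 SGN libraries by age, with lines through the age means and a dotted line between the ages before and after hearing onset. Kcnc1 starts level with the other genes at E15.5 (25.8% to 34.2%) and lies between 63.5% and 82.0% at P14 and P30.

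In mean TPM, which compares genes per length, Kcnc2 (16.8 ± 10.9, SD, n = 3), Kcnc1 (13.1 ± 7.52), Kcnc4 (12.3 ± 3.67) and Kcnb2 (7.25 ± 4.24) overlapped at E15.5. Within each E15.5 library, where the genes share the TPM scale, Kcnb2 was the lowest of these genes. At P30 the order was Kcnc1 (113 ± 34.7), Kcnb2 (88.6 ± 10.7), Kcnc2 (41.4 ± 12.2) and Kcnc4 (12.3 ± 13.4). Kcnc1 and Kcnb2 overlapped there, and both lay above every P30 library of Kcnc2 and Kcnc4.

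As a mean of the 5 SGN ages, all 4 genes were higher in SGNs than in HCs and glial cells, by very different amounts. For single ages the libraries overlapped for Kcnb2 between HCs and SGNs at E15.5 and P1. For Kcnc1, glial replicate 1 overlapped with SGNs at E15.5. The test set the mean of the 5 SGN ages against 3 HC or 3 glial libraries, with an adjusted p under 0.01 and a difference over 4-fold. All 4 were called higher in SGNs against HCs, where 26.8% of the 17531 tested genes were called in either direction (1847 higher and 2847 lower in SGNs). The 4 were also called higher against glial cells, where 24.7% were called (2504 higher and 1822 lower). At the nearest ages the 4 were called again, for P14 SGNs against P12 HCs (23.1% of genes) and for P8 SGNs against P8 glial cells (20.9%). These comparisons share their HC or glial libraries and are not independent of each other. Kcnc4 passed the filter on low counts through SGNs alone. That filter favored its calls over HCs and over glial cells, which are therefore a description only.

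Kcnc4 had the lowest level in HCs. The 3 HC libraries held 4, 0 and 0 counts, which is 0.328 CPM in the first and, in the others, no more than the 3 counts that a count of 0 allows. Over the 3 HC libraries together this gave 0.0847 CPM (exact 95% interval 0.0231 to 0.217, for counting error only), against a mean of 34.3 CPM over the 15 SGN libraries, a ratio of 406 with an interval of 158 to 1489. If both reads of a pair were counted, the 4 counts may stand for fewer fragments, and these intervals are too narrow. The lowest SGN library, at 9.03 CPM, lay 27.5-fold above the highest HC library. The fitted log2 difference of 9.45 ± 1.41 (limma adjusted p = 8.84e-06) depends on the small value added to counts near 0, and Kcnc4 passed the filter through SGNs alone. In glial cells Kcnc4 had 25, 2 and 5 counts (1.27, 0.167 and 0.482 CPM), and the log2 difference of SGNs over glial cells was 5.94 ± 1.27 (limma adjusted p = 0.000582). That call was lost without glial replicate 2 (5.28, adjusted p = 0.0118), as was the call for P8 SGNs over P8 glial cells (5.57, adjusted p = 0.0105).

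Kcnc1 held 5.24, 1.52 and 5.47 CPM in HCs and was higher in SGNs by 6.91 ± 0.87 on the log2 scale (limma adjusted p = 9.28e-07). In glial cells it held 109, 7.87 and 5.02 CPM, so that replicate 1 reached the level of E15.5 SGNs while the other glial libraries were near HCs. Replicate 1 is the glial library with the most SGN and HC markers, and the part of these cells in its Kcnc1 level was not tested. The log2 difference of SGNs over glial cells was 3.79 ± 0.57 (limma adjusted p = 1.48e-05) with that library and 5.55 ± 0.62 (limma adjusted p = 6.11e-07) without it. Leaving out replicate 2 or 3 of the glial cells instead gave 3.15 and 2.96. For P8 SGNs against P8 glial cells the value was 4.07 with all glial libraries and 5.83, 3.43 and 3.24 without replicates 1, 2 and 3 in turn.

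Kcnc2 held 6.47, 4.15 and 6.92 CPM in HCs and 8.40, 1.67 and 0.965 in glial cells, again with glial replicate 1 the highest. Its log2 difference was 4.52 ± 0.71 over HCs (limma adjusted p = 1.55e-05) and 5.09 ± 0.89 over glial cells (limma adjusted p = 8.32e-05). Without glial replicate 1 the value over glial cells was 6.14 (adjusted p = 0.000634). The lowest of the 15 SGN libraries, at 40.0 CPM, lay above every HC and glial library.

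Kcnb2 was the member with the most counts in HCs, at 78.7, 53.9 and 65.3 CPM. These lay within the range of the E15.5 SGN libraries, overlapped with the P1 SGN libraries (63.4 to 106) and lay below every SGN library from P8 on. The log2 difference over HCs was 2.22 ± 0.47 for the mean of the SGN ages (limma adjusted p = 0.000432) and 2.89 ± 0.51 for P14 SGNs (limma adjusted p = 0.000102). The first of these fell under the 4-fold threshold when libraries were scaled by their totals alone (1.67) or by DESeq2 size factors (2.00). In glial cells Kcnb2 held 8.91, 15.8 and 17.2 CPM, below every SGN library, with a log2 difference of 4.07 ± 0.84 (limma adjusted p = 0.000441). In HCs, Kcnb2 had a mean TPM of 11.3 ± 1.67 (SD, n = 3), against 1.12 ± 0.606 for Kcnc1, 2.14 ± 0.540 for Kcnc2 and 0.0735 for Kcnc4.

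Between HCs and glial cells none of the 4 genes was called, where 24.4% of all genes were. Kcnb2 was at a log2 difference of 1.85 ± 0.94 of HCs over glial cells (limma adjusted p = 0.117), with all HC libraries above all glial libraries. Kcnc1 was at -3.12 ± 1.03 (limma adjusted p = 0.0181) with glial replicate 1 and at -1.36 (adjusted p = 0.186) without it. Of the 6 fits with 1 library left out, 2 called Kcnc1 (lowest limma adjusted p = 0.00464).

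The silent subunits and partners of Kv2 channels were read from lists written with earlier results of these data known. Of the 9 silent subunit genes on the list, which leaves out Kcnf1, 4 passed the filter of the SGN fit. Kcns1 moved in the same direction as Kcnb2, from 2.42 to 8.54 CPM at E15.5 to 40.8 to 52.3 at P30 (log2 fold change 3.76 ± 0.46, limma adjusted p = 9.08e-06). The other three passed the filter only through the ages at which they were high, so their levels are given as a description. Kcns3 held between 0 and 0.807 CPM at E15.5 and between 3.47 and 16.9 at P30. Kcns2 held 0.698 to 6.14 CPM at E15.5 and 0.08 to 0.268 at P30. Kcng3 held 2.00 to 7.82 CPM at P1 and at most 1.57 at any other age.

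In HCs the silent subunit genes had other levels. Kcns3 was at 34.2 to 49.8 CPM in HCs and at most 18.9 in any SGN library (limma adjusted p = 8.67e-06 for the mean of the SGN ages), although the difference from P14 SGNs did not pass (limma adjusted p = 0.212). Kcnv1, which passed the filter through HCs alone, was at 20.6 to 27.0 CPM there and at most 0.747 CPM in any SGN library. Kcnf1, a silent subunit gene listed with the other channels, also passed through HCs alone. It was at 3.7 to 8.1 CPM there and at most 2.17 in any SGN library. Kcns1, Kcns2 and Kcng3 passed through SGNs alone. In HCs, Kcns1 was at most 0.164 CPM, and Kcng3 and Kcns2 were at 0 counts in all 3 libraries. At P14, the SGN age nearest to the HCs, Kcng3 and Kcns2 were themselves low, with means of 0.49 and 0.064 CPM.

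Of 8 partner genes, 3 passed the filter of the SGN fit. Amigo1, which encodes a membrane protein that accompanies Kv2 channels, held 31.7 to 44.8 CPM at E15.5 and 228 to 258 at P30. Its log2 fold change was 3.24 ± 0.22 (limma adjusted p = 1.84e-08), and its 3 steps after P1 each passed the p threshold (limma adjusted p = 0.00634, 0.0274 and 0.0271) while staying under 2-fold. Amigo1 was also present in HCs, at 98.9 to 131 CPM, with a log2 difference of SGNs over HCs of 0.07 ± 0.17 (limma adjusted p = 0.773). Vapb, which encodes an endoplasmic reticulum protein that tethers Kv2 clusters, rose by 1.51 ± 0.22 on the log2 scale from E15.5 to P30 (limma adjusted p = 5.96e-05). Its relative Vapa, at 39.0 to 57.6 CPM at E15.5 and 49.5 to 62.1 at P30, passed the p threshold (limma adjusted p = 0.0229) with a log2 fold change of 0.74. Kcne2, of the small KCNE subunits, held 1.45 to 1.87 CPM in HCs and at most 1.24 in any SGN library, and passed the filter through HCs alone.

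**Figure D4:**
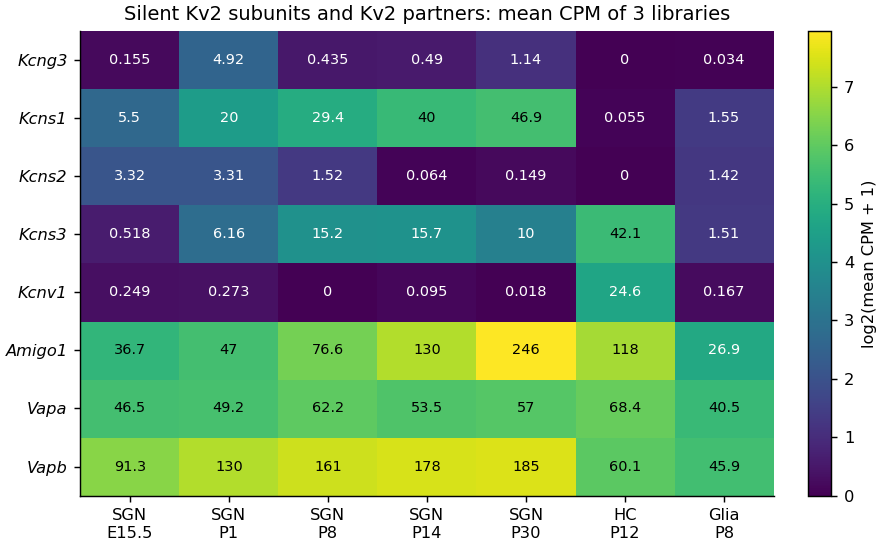
Mean CPM of 3 libraries for 5 silent Kv2 subunit genes (Kcng3, Kcns1, Kcns2, Kcns3, Kcnv1) and 3 Kv2 partner genes (Amigo1, Vapa, Vapb) in the 7 groups, with the value in each cell and color on a log2(mean CPM + 1) scale. Amigo1 goes from 36.7 at E15.5 to 246 at P30 in SGNs, and Kcnv1 is at 24.6 in HCs and at most 0.273 in any SGN group.

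Among 25 other voltage-gated potassium channel alpha subunit genes, a list that includes the silent subunit gene Kcnf1, 20 passed the filter of the SGN fit. From E15.5 to P30, 10 of these rose, 3 fell and 7 were not called, where 34.6% of all tested genes were called (2778 rose and 2446 fell), with a median log2 fold change of 1.96 over the 20 and of -0.01 over all genes tested. Against HCs, 9 of 22 tested were higher in SGNs and 5 lower, where 26.8% of all genes were called (1847 higher and 2847 lower). Against glial cells, 9 were higher and 3 lower, where 24.7% of all genes were called (2504 higher and 1822 lower). Some called genes passed the filter only through the ages or cells in which they were high. By age these include Kcna3, Kcnd2, Kcnq5 and Kcnh4, the last at 0 CPM in P30 SGNs. Over HCs they include Kcnd2, Kcnh1 and Kcnh5, which passed through SGNs alone. The counts of called channel genes are therefore a description only.

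Across the 15 SGN libraries, Kcnb2 correlated with Kcnc2 (Pearson's r of 0.91, on TMM-scaled log2 CPM) and with Kcnc1 (0.90), and Kcnc1 with Kcnc2 (0.73). Kcnc4 had r values of -0.05, -0.04 and -0.12 with Kcnb2, Kcnc1 and Kcnc2. These values describe libraries that differ in age, so any pair of genes that rises with age correlates. Among 8930 genes with more than 10 CPM in every library of at least 1 age and a symbol of their own, the closest to Kcnc1 were Synj1 (r = 0.990) and Snap25 (0.986), both of the synaptic vesicle cycle, and Epn3 (0.985). The closest to Kcnb2 were Akap6 (0.974), Kif1b (0.967) and Sptb (0.967). The closest to Kcnc2 were Kcnh7 (0.937), another potassium channel gene, Me2 (0.934) and Cachd1 (0.926). Kcnc4 had lower values even with its closest genes, which were Ptprt (0.870), Timp2 (0.803) and Fdft1 (0.798).

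The RefSeq promoter windows of Kcnc1 and Kcnc4 are shown because these neighbors in the protein family had unlike courses in SGNs, a 10.4-fold rise against no step that passed a test. Each window covers 300 bases of GRCm38.p6 at a start site listed by RefSeq, written 5′ to 3′ on the strand of the gene. Most of the Kcnc1 window lies before the gene start annotated by GENCODE M21 (46396497). The Kcnc4 window lies wholly inside its annotated gene (107438303 to 107459552, minus strand). By that annotation it is not upstream sequence, so the windows are not like parts of their genes. The capitals mark GGGCGG, the GC box, on either strand.
Kcnc1 (chr7:46396218-46396517, plus strand): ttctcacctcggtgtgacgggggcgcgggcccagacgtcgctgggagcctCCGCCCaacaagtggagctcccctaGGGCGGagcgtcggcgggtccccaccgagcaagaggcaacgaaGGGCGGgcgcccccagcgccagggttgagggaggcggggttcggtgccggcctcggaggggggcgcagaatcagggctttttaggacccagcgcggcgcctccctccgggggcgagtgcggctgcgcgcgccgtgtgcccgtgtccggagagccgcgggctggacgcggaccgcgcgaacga
Kcnc4 (chr3:107458849-107459148, minus strand): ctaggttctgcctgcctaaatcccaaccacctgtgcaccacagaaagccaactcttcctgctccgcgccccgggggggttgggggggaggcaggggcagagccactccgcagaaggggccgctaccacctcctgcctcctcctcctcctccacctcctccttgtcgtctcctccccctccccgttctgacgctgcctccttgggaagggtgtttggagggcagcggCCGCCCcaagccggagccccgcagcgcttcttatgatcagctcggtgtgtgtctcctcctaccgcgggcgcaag

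The Kcnc1 window held 3 matches, 41 CpG dinucleotides and 74.7% G and C. The Kcnc4 window held 1 match, 17 CpG dinucleotides and 66.7% G and C. Over all 32851 promoter windows of the table, 35.7% held at least 1 match, and the median content of G and C was 52.7%. A match is a run of letters and does not show that a factor binds there. RefSeq also listed 4 start sites for Kcnc2, of which 1 window held a match, and their G and C content lay between 52.7% and 58.0%.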

How the data were processed

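The authors mapped paired reads from amplified RNA (Ovation RNA-Seq System V2) to mm10 with STAR 2.4.0i, counted them with featureCounts on GENCODE vM15, and deposited raw counts per gene with gene lengths. Strand, multimapping and pair settings are not given in the sources used here. A median of 67.9% of the low counts per library were even, so a count may stand for a read and not a pair.

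The 4 genes and all lists were chosen with earlier results of these data known, and other genes of both families are not reported here. CPM and TPM were computed from the deposited counts and lengths. Counts were fitted with limma 3.58.1 (voom) after TMM scaling with edgeR 4.0.16 in R 4.3.3, on 15113 genes of the 15 SGN libraries and 17531 genes of the 21 libraries (CPM over 1 in each replicate of a group), with Benjamini-Hochberg adjustment over all genes. The 3 genes nearest to each member by r were named by rule, as were called list genes. Permutation tests used scipy 1.17.1. The fits were tested on simulated data. Symbols came from GENCODE M21.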

Additional observations from a re-analysis of the deposited data

How the results depend on the processing

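Settings were changed one at a time. Calls of Kcnc1 and Kcnc2 from E15.5 to P30, of Kcnb2 over that period and the exact tests of Kv3 shares kept their side of the threshold in every alternative tried, though the difference in the Kcnc4 share ranged from -19.7 percentage points without P8 to -8.73 with CPM. Values below are log2 fold changes, and none of the causes was tested. Without a filter on low counts, Kcnb2 lost its calls from P1 to P8 (1.75), over HCs (2.21), over glial cells (4.13) and for P8 SGNs over P8 glia (4.38). Over HCs it also lost the call with DESeq2 size factors (2.00) and library totals alone (1.67). With sample quality weights, calls over glia were lost for Kcnb2 (4.12, and 4.35 at P8), Kcnc2 (5.03 and 5.07) and Kcnc4 (5.81 and 6.17), while Kcnc1 from E15.5 to P1 (1.045), Kcnb2 (1.82) and Kcnc2 (1.39) from P14 to P30 and Kcnc1 in HCs over glia (-3.23) gained one. Kcnb2 from P14 to P30 was also called with CPM over 10 (1.62) and with DESeq2 (1.45). HCs over glia were called by edgeR for Kcnc1 (-3.82) and by DESeq2 for Kcnc4 (-3.16). Uncalled values changed sign for Kcnc2 from P8 to P14 with library totals (-0.076), no filter (-0.0048) and weights (-0.043), and for Kcnc4 from E15.5 to P30 with edgeR (0.24) and DESeq2 (0.20). DESeq2 gave no adjusted p for Kcnc1 between cell types.

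Replicate numbers were not used as pairs, since in no comparison did same-numbered libraries deviate together with r over 0.1 for all 3 numbers. That cutoff cannot show that same-numbered libraries share nothing. All 3 values were positive for P1 and P8 (0.36, 0.06 and 0.16), P8 and P14 (0.31, 0.13 and 0.02) and P14 and P30 (0.37, 0.22 and 0.08). The other comparisons included negative values. With the replicate block, Kcnb2 from P14 to P30 (1.58) and Kcnc1 in HCs over glia (-3.36) were called, Kcnc4 from E15.5 to P30 was at 0.049, and calls over all genes rose from 81 to 146 from P8 to P14 and from 9 to 23 from P14 to P30.

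Leaving out 1 library at a time gave the following ranges for values whose call or sign changed. From E15.5 to P1 the range was -0.13 to 0.46 for Kcnb2, 0.80 to 1.21 for Kcnc1 (called in 3 of 6 fits) and -0.22 to 0.17 for Kcnc4. From P1 to P8 it was 1.53 to 1.91 for Kcnb2. From P8 to P14 it was -0.012 to 0.78 for Kcnb2, -0.28 to 0.27 for Kcnc2 and -0.58 to 0.34 for Kcnc4. From P14 to P30 it was 1.36 to 2.15 for Kcnb2 and -1.30 to 0.40 for Kcnc4, and from E15.5 to P30 -1.21 to 0.49 for Kcnc4. Over glia Kcnc4 ranged from 5.28 to 6.63, and 5.57 to 6.93 at P8. Other values that moved, with no change of call or sign, include Kcnc2 from E15.5 to P1 (-0.96 to -0.14) and Kcnc4 from P1 to P8 (0.19 to 0.58). Over glia Kcnc1 ranged from 2.96 to 5.55 (3.24 to 5.83 at P8) and Kcnc2 from 4.43 to 6.14 (4.48 to 6.18 at P8), and over HCs Kcnc4 from 8.82 to 10.7. For HCs over glia a call or sign did change. Kcnc1 ranged from -3.95 to -1.36 and was called in 2 of 6 fits. Kcnc2 ranged from -0.092 to 1.61 and changed sign in 1 fit.

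Over all genes, the count called from P14 to P30 was 9, against 97 by DESeq2, 110 with weights, 17 with CPM over 10, 2 with only the 2 ages in the fit, and from 1 to 30 with 1 library left out. From P8 to P14 it was 81, against 198 by DESeq2, 174 with weights, 129 with CPM over 10, 52 with only the 2 ages, 34 by edgeR and 28 to 59 with 1 library left out. From E15.5 to P1 it was 1248, against 552 with weights, 453 with only the 2 ages and 701 to 1595 with 1 library left out, and from P1 to P8 1124, against 649 by edgeR and 638 to 982 with 1 library left out. With weights, calls fell from 4326 to 2017 for SGNs over glia, from 3662 to 1942 at P8 and from 4272 to 2226 for HCs over glia. With only CPM over 10, they fell from 4694 to 2849 over HCs, to 2847 over glia and to 2818 for HCs over glia, and with only the 2 groups in the fit to 2125 for P8 SGNs over P8 glia. The TPM and CPM orders of the 7 groups placed 5 groups alike for Kcnb2, Kcnc1 and Kcnc2 and 3 for Kcnc4. With 3 libraries a group, a change within the spread of Kcnc4 at P14 and P30 would not be detected.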
